A study of Mus musculus with 12 samples.

Results

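The Wnt list described here holds 55 mouse genes of the Wnt signalling pathway, chosen by symbol from the count files: secreted ligands, receptors, cytoplasmic and nuclear signalling proteins, and inhibitors. All 55 had at least 10 counts in total over the 12 libraries, and the lowest total was 17. Of the 22310 gene symbols in the files, 13540 passed the filter on low counts and were tested, among them 51 of the 55 members. Wnt5a, Wnt16, Rspo3 and Rnf43 did not pass that filter and are given by their levels alone.

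The libraries hold total RNA of satellite cells, the stem cells of skeletal muscle, taken from hindlimb muscles of C57BL/6 mice. In every group, wild type included, the muscles had been injured with a total of 50 µl of 1.2% barium chloride given at about 20 sites, which activates the cells, and the cells were isolated 3 days later. The 4 groups of 3 libraries each were wild-type and Hoxa9 knock-out mice, both as young adults of 3 to 4 months and as old animals of 22 to 28 months. Hoxa9 encodes a homeobox transcription factor. The labels do not describe the knockout allele, and they do not say that the libraries came from separate mice, so p-values measure the spread between libraries, which may be technical. By its title the series is about Hoxa9 in the ageing of muscle stem cells, and the comparisons ask how pathway genes differed with age in each genotype and with the loss of Hoxa9 at each age.

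In canonical Wnt signalling a secreted Wnt protein binds a Frizzled receptor together with the co-receptor Lrp5 or Lrp6. Dishevelled proteins then relay the signal and block a destruction complex, built on Axin and Apc with the kinases Gsk3 and casein kinase 1 alpha, that otherwise marks beta-catenin for breakdown. Stabilised beta-catenin enters the nucleus and activates genes with the TCF and LEF factors, for which Bcl9, Bcl9l and Pygo2 act as co-activators. Branches without beta-catenin run through Ror and Ryk receptors and the planar cell polarity proteins Vangl and Prickle. In muscle, Wnt signals act on satellite cell division, migration and differentiation.

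The promoters of 3 members are shown because their genes passed the test in the same direction in both knockout comparisons, with the smallest p-values among such members that have a RefSeq promoter entry. The windows are 240 bases that end 10 bases before the annotated start, read 5′ to 3′ on the gene's strand from RefSeq on GRCm38.p6, with CpG dinucleotides in capitals. The window of Bcl9, a nuclear co-activator, is chr3:97227375-97227614 on the minus strand and holds 27 CpGs at 79.6% GC. That of Dvl3, a Dishevelled relay protein, is chr16:20516736-20516975 on the plus strand and holds 19 CpGs at 73.3% GC. That of Gsk3a, a kinase of the destruction complex, is chr7:25237862-25238101 on the minus strand and holds 7 CpGs at 50.8% GC.
Bcl9: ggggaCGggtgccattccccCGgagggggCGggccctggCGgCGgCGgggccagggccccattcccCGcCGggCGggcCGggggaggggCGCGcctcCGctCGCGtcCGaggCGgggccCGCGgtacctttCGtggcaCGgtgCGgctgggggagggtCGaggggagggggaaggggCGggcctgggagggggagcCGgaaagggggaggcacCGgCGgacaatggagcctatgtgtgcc
Dvl3: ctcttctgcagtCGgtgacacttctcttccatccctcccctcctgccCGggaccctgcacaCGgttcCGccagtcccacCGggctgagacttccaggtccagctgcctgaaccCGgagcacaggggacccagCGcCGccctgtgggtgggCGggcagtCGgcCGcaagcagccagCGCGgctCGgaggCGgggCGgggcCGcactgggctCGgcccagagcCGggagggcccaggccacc
Gsk3a: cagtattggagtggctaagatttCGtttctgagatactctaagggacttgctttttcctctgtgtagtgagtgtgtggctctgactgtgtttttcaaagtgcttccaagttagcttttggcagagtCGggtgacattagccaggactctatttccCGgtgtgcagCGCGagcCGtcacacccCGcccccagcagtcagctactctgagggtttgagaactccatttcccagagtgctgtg

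Over the 37 members with a promoter entry (250 bases before to 50 bases after the start) the median promoter GC content was 70.0%, against 52.7% over all 32851 promoters in the table. The TCF/LEF letters CTTTGAT, or ATCAAAG on the other strand, were in windows of 2 of those 37 members, Wnt11 and Wnt5b, and in 3.73% of all promoters. A paired Pbx and Hoxa9 site, TGATTTAT or ATAAATCA on the other strand, was in windows of 0 of the 37 members and in 0.977% of all promoters. A match of letters is no measure of binding. The 30 bases around each TCF/LEF match are shown, with the match in capitals, because both genes encode ligands: Wnt11 at chr7:98835050-98835079 on the plus strand, and Wnt5b at chr6:119449439-119449468 on the minus strand.
Wnt11: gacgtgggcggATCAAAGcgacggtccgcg
Wnt5b: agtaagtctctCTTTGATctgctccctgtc

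Between 4193433 and 20337015 reads per library fell in genes, and 32.2 to 70.8% of the uniquely placed reads fell outside them, most in old knockout library 3 (70.8%) and old wild-type library 2 (57.1%). Hoxa9 measured 10.3 ± 2.01 CPM in wild type when young and 17.65 ± 4.27 CPM when old, against 6.40 ± 0.848 in young and 5.80 ± 1.08 in old knockout (mean ± SD, n = 3), where CPM is the count per 1000000 reads of the scaled library size. Hoxa9 was lower in old knockout than in old wild type by edgeR's quasi-likelihood test (log2 fold change -1.63 ± 0.25 (SE), adjusted p = 0.00235), and it did not pass in young mice (-0.67, adjusted p = 0.0671). Old knockout libraries 2 and 3 read 125 and 151 CPM of the Y-linked gene Ddx3y, and the other libraries read at most 5.11. The labels do not give the sex of the mice, and whether the old knockout group held both sexes was not tested. Summed satellite cell and myoblast markers were 6662 to 10020 CPM over all libraries, with 0 of the 11 markers at 0. Summed choroid plexus markers, a list for another tissue, were 151 to 6093 CPM in wild type and 28.4 to 72.3 CPM in knockout, where Ttr was at 0. The share of reads on Lars2, a mitochondrial tRNA synthetase gene, was 0.0258 to 0.11% in wild type and 0.484 to 25.05% in knockout. The part of these differences between the genotypes in the knockout results was not tested.

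Per kilobase of transcript, Ctnnb1, the gene of beta-catenin, was the highest member, at a mean level of 268 CPM per kilobase over the 12 libraries. Its 4 group means on that scale lay between 233 and 293. Csnk1a1, casein kinase 1 alpha, followed at a level of 131, and then the Wnt receptor Ryk at 56.9, Gsk3a at 39.9 and Dvl1 at 35.8 CPM per kilobase, the last pair in the other order in both knockout groups. Among the Frizzled members, on the same scale, Fzd7 was highest at 13.25 and Fzd6 lowest at 0.837 over all libraries. In young knockout, however, the mean of Fzd1 was just above that of Fzd7 (11.9). The highest Wnt ligand among the members over all libraries was Wnt9a at 3.36 (3.18 in young knockout, where Wnt4 was at 3.31). Porcn, the enzyme that acylates Wnt proteins, was above it at 4.89. Dkk3, a secreted Dickkopf-family protein, was the highest secreted inhibitor among the members at 3.21. Znrf3, a ligase that removes Frizzled receptors, was the highest feedback inhibitor among them at 5.86. Vangl1 (2.25) and Vangl2 (2.20) were the highest planar polarity members on this scale.

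The 4 members that missed the filter had few counts. Wnt5a, a ligand of the branches without beta-catenin, read 0.873 to 1.08 CPM in the young wild-type libraries, 0.677 to 0.696 in the old ones, 0.166 to 0.770 in the young knockouts and 0.291 to 0.451 in the old knockouts. Wnt16, another ligand, read at most 0.497 CPM in any library, and Rspo3, a ligand that strengthens Wnt signals, at most 1.05 CPM. Rnf43, a ligase related to Znrf3, read 0.136 to 1.08 CPM over the wild-type libraries and at most 0.150 CPM over the knockout libraries. Wls, the carrier that exports Wnt proteins, is no member and was listed at 0 in all 12 libraries. The annotation used for the counting is not given, so whether this 0 reflects the expression of Wls cannot be told.

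**Figure D1:**
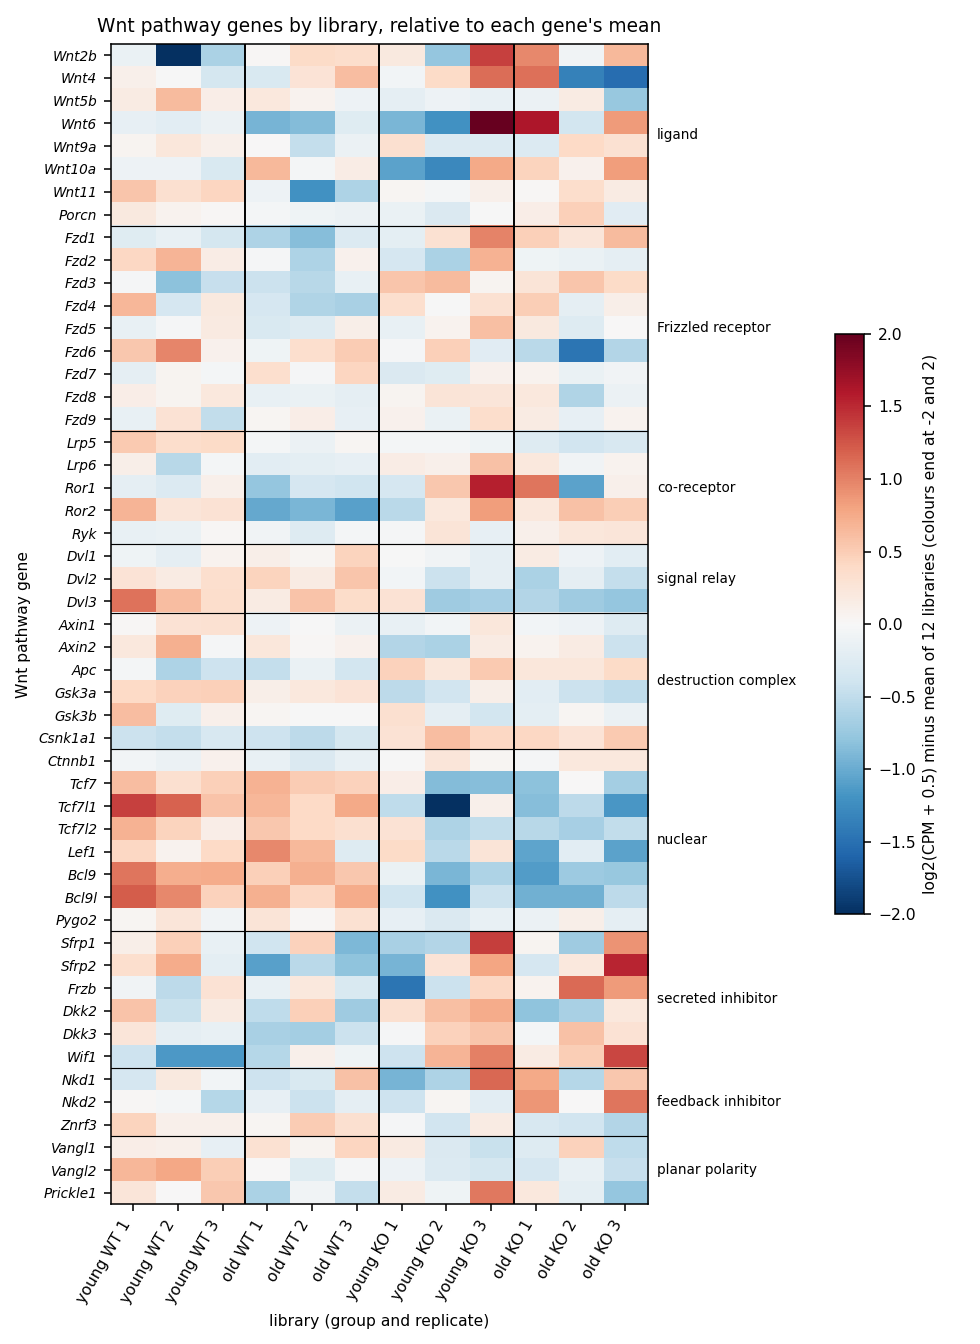
Heat map of the 51 tested members (rows, by role) in the 12 libraries (columns, by group and replicate). Colour is log2(CPM + 0.5) minus that gene's mean over the 12 libraries. Bcl9, Bcl9l and Tcf7l1 were lower in every knockout than in every wild-type library and Csnk1a1 higher, and young knockout library 3 was the highest library for 15 of the 51 tested members.

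Several nuclear members were lower in knockout than in wild type at both ages. In young mice 3 tested members were higher and 8 lower in knockout at an adjusted p under 0.05 (edgeR's quasi-likelihood test over all 13540 genes), and in old mice 7 were higher and 10 lower. These are 21.6% and 33.3% of the 51 tested members, against 20.9% of all genes in young and 16.7% in old mice, so that the young share was near the background. Of all genes, 10.9% were called higher and 10% lower in young mice, and 9.52% higher and 7.21% lower in old mice. The median log2 fold change was -0.17 over the members and -0.02 over all genes in young mice, and 0.02 and -0.01 in old mice. With offsets that remove each library's GC trend (described below) the members' median turned to 0.17 in young and was 0.28 in old mice, against 0.05 and 0.01 over all genes. In the young and the old comparison, which share no library, 9 members passed with the same sign, which is 9 of 11 and 9 of 17 of the calls. Over all genes 1284 passed at both ages with the same sign, of 2831 and 2265.

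The old-age count changed when single libraries were left out. It was 9, 7 or 11 without old wild-type library 1, 2 or 3, and 7 without old knockout library 3. Without old knockout library 3, 779 of 14120 genes passed, against 2265 of 13540 with all libraries, so the count over all genes fell as well. Without old knockout libraries 2 and 3 together, which leaves a lone old knockout library whose spread is assumed to be like that of the other groups, Bcl9 was the only member that passed (log2 fold change -1.73, adjusted p = 0.0364), and 121 of 14990 genes passed. Without old wild-type library 2 and old knockout library 3, where 3 of 13804 genes passed, 0 members passed. Each of the 17 old-age calls kept its sign in both of these fits.

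Relative to each gene's mean over the 12 libraries, levels moved with the GC content of the transcript, in opposite directions in the genotypes. Spearman's rho between that relative log2 level and GC content was taken over 13267 genes. It was 0.226 to 0.471 in the wild-type libraries and -0.525 to -0.125 in the knockout libraries. Levels centred on a shared mean tend to take opposite signs, so rho shows a difference between the genotypes and not which of them carries a trend. As a description across genes, which are not independent replicates, rho between GC content and the young knockout log2 fold change was -0.54 over all genes and -0.32 over the 51 members, and in old mice it was -0.44 and -0.14. The members called higher in young knockout had at most 44.3% GC, and those called lower at least 52.3%, whereas in old mice the ranges overlapped, with members called higher at up to 58.9% and those called lower from 47.3%. A fit with offsets that remove each library's GC trend (GC offsets) called 6 members in young mice, 2 higher and 4 lower, of which 5 were among the 11, while 6.33% of all genes passed. In old mice the GC offsets called 10 members, 6 higher and 4 lower, of which 9 were among the 17, while 6.89% of all genes passed. Under the GC offsets 9 members changed sign in young mice (Axin1, Dvl1, Fzd7, Nkd2, Porcn, Pygo2, Ror2, Wnt10a and Wnt9a) and 5 in old mice (Axin1, Axin2, Dvl1, Pygo2 and Wnt5b), and 0 of these passed in either fit. For each gene below it is said where its call ended with the GC offsets.

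**Figure D2:**
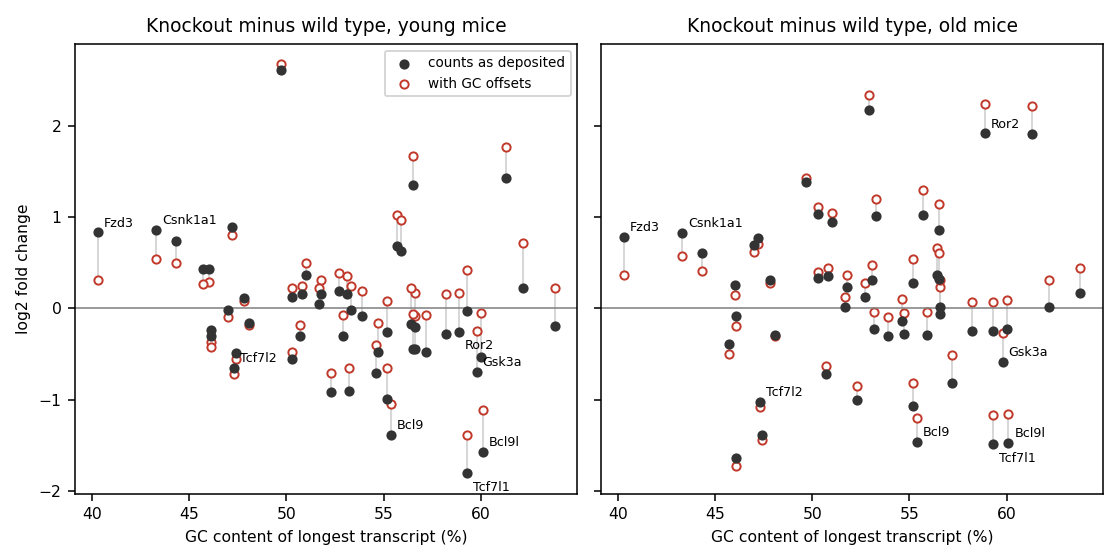
Log2 fold change of the 51 tested members (vertical axis, knockout minus wild type) against the GC content of the longest transcript (horizontal axis, %), in young (left) and old mice (right); filled points are fits to the counts as deposited, open points fits with GC offsets, joined by lines. Csnk1a1 moves from 0.86 to 0.54 and Bcl9 from -1.39 to -1.05 in young mice and both still pass, while Gsk3a moves from -0.70 to -0.25 and Fzd3 from 0.83 to 0.31 and neither passes.

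Among the 8 nuclear members, 4 were lower in young knockout and 5 in old knockout, with 0 higher at either age. Over all genes 20.9% were called in either direction in young mice, and 9.52% higher and 7.21% lower in old mice. The median log2 fold change of the 8 nuclear members was -0.79 in young and -1.25 in old mice. Bcl9 read 51.7, 40.4 and 40.9 CPM in the young wild-type libraries and 33.9, 40.3 and 35.5 in the old ones. In knockout it read 22.1, 12.7 and 15.7 CPM in young and 10.97, 14.5 and 14.2 in old mice. Every knockout library thus lay below every wild-type library. The log2 fold change of Bcl9 was -1.39 ± 0.20 (SE, adjusted p = 0.00101) in young and -1.47 ± 0.20 (adjusted p = 0.00167) in old mice. With GC offsets Bcl9 passed at both ages (-1.05 and -1.20), and it passed without any single library.

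Bcl9l, the paralogue of Bcl9, behaved alike. It read 79.8, 66.5 and 47.2 CPM in the young wild-type libraries and 55.8, 45.3 and 57.2 in the old ones. In knockout the levels were 25.7, 14.4 and 25.1 CPM in young and 17.1, 17.1 and 23.5 in old mice, again with no overlap between the genotypes. Its log2 fold change was -1.58 ± 0.24 (adjusted p = 0.00131) in young and -1.48 ± 0.24 (adjusted p = 0.00311) in old mice, and with GC offsets it passed at both ages (-1.12 and -1.15). An exon of Bcl9l overlaps one of Cxcr5 on the other strand, and the sources used here do not give the strand setting of the counting. Pygo2, which joins Bcl9 proteins to chromatin, did not pass at either age (-0.28 and -0.25, or 0.15 and 0.07 with GC offsets; 66.5 to 100.9 CPM over all libraries).

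The TCF and LEF genes encode the DNA-binding partners of beta-catenin. Summed per kilobase, the 4 of them stood at 22.6 ± 3.35 in young and 21.7 ± 1.77 in old wild type and at 11.5 ± 4.33 in young and 9.95 ± 1.85 in old knockout (CPM per kilobase, mean ± SD, n = 3). The lowest wild-type sum was 19.6 and the highest knockout sum 16.2. Tcf7l1, often a repressor in the absence of a Wnt signal, read 19.3, 16.8 and 10.8 CPM in the young wild-type libraries, 11.6, 9.54 and 12.4 in the old ones, 4.89, 1.41 and 7.70 in the young knockouts and 3.76, 4.82 and 2.91 in the old knockouts. The genotypes did not overlap, and young knockout library 2 was the lowest of all. Tcf7l1 was lower in young (-1.81 ± 0.42, adjusted p = 0.0105) and in old knockout (-1.49 ± 0.42, adjusted p = 0.0313). The young call held with GC offsets (-1.39, adjusted p = 0.0479) but the old one did not (-1.17, adjusted p = 0.079), nor did the old one hold without any one of the 6 old libraries (-1.72 to -1.35, adjusted p 0.0518 to 0.11).

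Tcf7, the gene of TCF1, read 26.3, 21.5 and 24.0 CPM in the young wild-type libraries and 27.9, 24.6 and 23.6 in the old ones. In knockout it read 18.8, 9.11 and 9.19 CPM in young and 9.47, 17.1 and 10.5 in old mice, so that all knockout libraries were below all wild-type libraries, with young knockout library 1 and old knockout library 2 nearest to them. It was lower in young (-0.92 ± 0.28, adjusted p = 0.0322) and old knockout (-1.002 ± 0.28, adjusted p = 0.028). Neither call held with GC offsets (-0.71 and -0.85; adjusted p = 0.151 and 0.0883). The young call was also lost without young wild-type library 1, 2 or 3, young knockout library 2 or 3, or old knockout library 3 (-0.99 to -0.67, adjusted p 0.0553 to 0.161), and it was -1.39 without young knockout library 1. The old call was lost without old wild-type library 1, 2 or 3 or old knockout library 1 or 3 (-1.05 to -0.80, adjusted p 0.0571 to 0.121).

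Tcf7l2, the gene of TCF4, read 29.1, 26.2 and 24.9 CPM in old wild type and 13.4, 12.3 and 13.95 in old knockout, with no overlap. It was lower in old knockout (-1.03 ± 0.23, adjusted p = 0.0114), also with GC offsets (-1.08) and without any single library. In young mice it read 32.5, 27.3 and 21.9 CPM in wild type and 24.4, 12.8 and 13.9 in knockout. Here the groups overlapped through young knockout library 1, and the difference did not pass (-0.66 ± 0.23, adjusted p = 0.0542). Lef1 was low throughout, at 0.29 to 2.71 CPM, and did not pass at either age (-0.30 and -1.64, adjusted p = 0.735 and 0.0751).

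Ctnnb1 itself did not pass by edgeR's quasi-likelihood test at either age. It read 927, 894 and 1023 CPM in the young wild-type libraries, 869, 786 and 874 in the old ones, 961, 1136 and 993 in the young knockouts and 947, 1119 and 1123 in the old knockouts. In old mice every knockout library was above every wild-type library, and the log2 fold change was 0.33 with a 95% interval of 0.05 to 0.62 (adjusted p = 0.0973 by edgeR, 0.0379 by DESeq2 and 0.0167 by limma-voom). In young mice the groups overlapped, with 0.12 and an interval of -0.17 to 0.40. An exon of Ctnnb1 overlaps one of Ulk4 on the other strand.

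**Figure D3:**
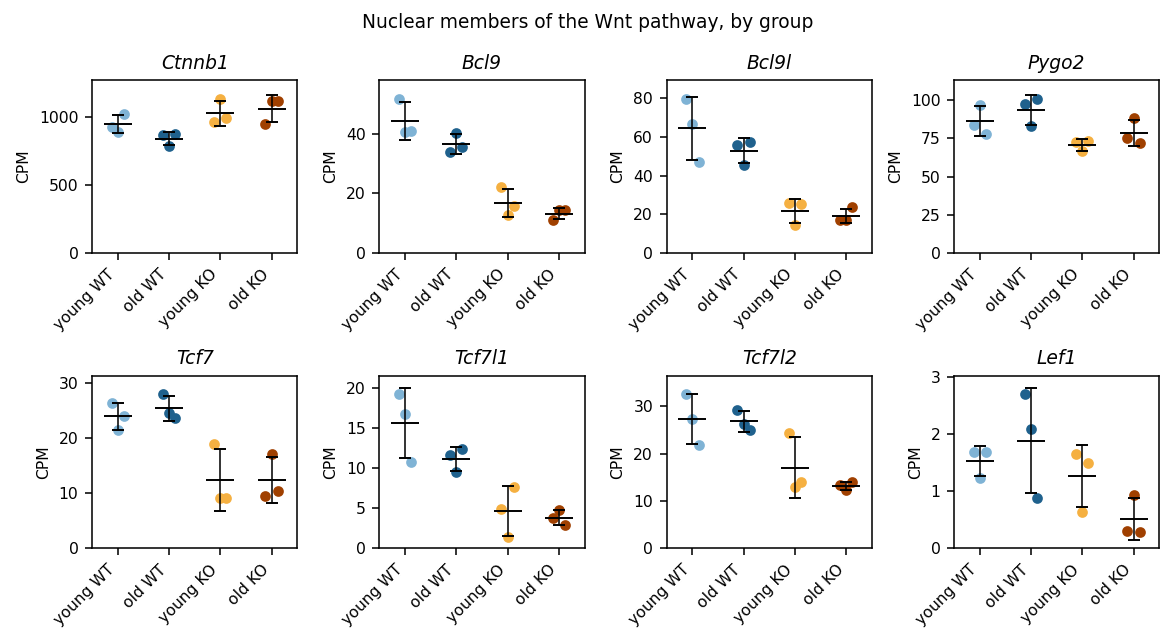
Levels (CPM, vertical axis from 0) of the 8 nuclear members in the 4 groups; points are libraries, horizontal bars the mean and error bars the SD of 3 libraries. Bcl9, Bcl9l, Tcf7 and Tcf7l1 are lower in every knockout than in every wild-type library, while for Ctnnb1 the old knockout libraries (947 to 1123 CPM) lie above the old wild-type libraries (786 to 874 CPM).

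Among the 3 Dishevelled genes, Dvl3 was lower at both ages and Dvl2 in old knockout, and Dvl1 did not pass. Dvl3 read 72.6, 52.6 and 43.4 CPM in the young wild-type libraries, 38.0, 50.7 and 44.0 in the old ones, 41.6, 20.5 and 21.4 in the young knockouts and 22.5, 20.5 and 19.8 in the old knockouts. The genotypes did not overlap within either age, with young knockout library 1 just under the lowest young wild-type library. Its log2 fold change was -0.99 ± 0.26 (adjusted p = 0.0169) in young and -1.08 ± 0.26 (adjusted p = 0.0174) in old mice. Neither held with GC offsets (-0.65 and -0.82; adjusted p = 0.141 and 0.074). The young call was lost without young wild-type library 1 or young knockout library 2 or 3 (-0.80 to -0.75, adjusted p 0.0522 to 0.0885), and the old call without old wild-type library 2 or old knockout library 2 or 3 (-1.05 to -0.97, adjusted p 0.0515 to 0.0771).

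Dvl2 read 44.1, 36.0 and 47.4 CPM in old wild type and 20.6, 28.4 and 23.0 in old knockout, with no overlap (-0.81 ± 0.16, adjusted p = 0.00717). The old call held without any single library and ended with GC offsets (-0.51, adjusted p = 0.0809). In young mice it read 39.0, 36.1 and 40.6 CPM in wild type and 31.1, 23.8 and 28.3 in knockout, also with no overlap, and the difference did not pass (-0.48, adjusted p = 0.0524). Dvl2 shares exon sequence with Acadvl on the other strand, which did not pass in old mice (-0.15, adjusted p = 0.569). Dvl1 read 147 to 231 CPM over all libraries (-0.03 and -0.25, or 0.42 and 0.07 with GC offsets), and it also overlaps an opposite-strand gene, Tas1r3. Per kilobase, Dvl1 made up 61.1 ± 4.98% of the Dishevelled sum in young and 67.6 ± 2.80% in old wild type, and 73.1 ± 4.79% and 77.4 ± 2.66% in young and old knockout (mean ± SD, n = 3).

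Within the destruction complex the members called went in different directions: 2 of 6 were higher and 1 lower at both ages. Of all genes 20.9% were called in young and 16.7% in old mice. With GC offsets Csnk1a1 alone of the 6 passed, at both ages. Csnk1a1, the kinase that primes beta-catenin, read 378, 366 and 409 CPM in the young wild-type libraries, 386, 357 and 401 in the old ones, 623, 788 and 683 in the young knockouts and 682, 616 and 735 in the old knockouts. No knockout library came near the wild-type range, and the log2 fold change was 0.86 ± 0.13 (adjusted p = 0.00127) in young and 0.83 ± 0.13 (adjusted p = 0.00279) in old mice, or 1.82-fold and 1.78-fold. Csnk1a1 passed at both ages with GC offsets, at the smaller values of 0.54 and 0.57, and without any single library.

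Apc, the large scaffold of the complex, read 184, 124 and 143 CPM in the young wild-type libraries, 136, 173 and 147 in the old ones, 261, 221 and 273 in the young knockouts and 222, 223 and 247 in the old knockouts. All knockout libraries were above all wild-type libraries. Its log2 fold change was 0.74 ± 0.16 (adjusted p = 0.00556) in young and 0.60 ± 0.16 (adjusted p = 0.0208) in old mice. Both calls ended with GC offsets (0.50 and 0.41; adjusted p = 0.0601 and 0.104), and the old one without old wild-type library 1 or 3 or old knockout library 3 (0.53 to 0.58, adjusted p 0.0689 to 0.0895).

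Gsk3a, whose kinase product phosphorylates beta-catenin, read 115, 121 and 122 CPM in the young wild-type libraries, 94.99, 101.2 and 106 in the old ones, 60.3, 67.0 and 94.4 in the young knockouts and 75.0, 64.4 and 61.3 in the old knockouts. Young knockout library 3 was nearest to wild type, and the genotypes did not overlap within either age. It was lower in young (-0.70 ± 0.15, adjusted p = 0.00724) and old knockout (-0.59 ± 0.15, adjusted p = 0.0219), and neither held with GC offsets (-0.25 and -0.27; adjusted p = 0.262 and 0.218). The young call was lost without young knockout library 2 (-0.58, adjusted p = 0.0506), and the old call without old wild-type library 1, 2 or 3 or old knockout library 2 or 3 (-0.63 to -0.52, adjusted p 0.0532 to 0.0897). Its paralogue Gsk3b (-0.24 and -0.09), the scaffold Axin1 (-0.21 and -0.06, or 0.17 and 0.23 with GC offsets) and Axin2, a scaffold that is also a Wnt target (-0.71 and -0.14), did not pass at either age, with Axin2 at 4.49 to 12.2 CPM.

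Of the 9 Frizzled members, 1 was higher in young knockout, and 2 were higher and 1 lower in old knockout. Over all genes 10.9% were called higher in young, and 9.52% higher and 7.21% lower in old mice, so 1 call of 9 in young mice is near the background. Fzd3 read 46.7, 26.7 and 34.4 CPM in the young wild-type libraries, 35.0, 32.2 and 42.6 in the old ones, 69.8, 73.4 and 49.2 in the young knockouts and 57.1, 69.9 and 62.2 in the old knockouts, with young knockout library 3 nearest to wild type and no overlap. It was higher in young (0.83 ± 0.21, adjusted p = 0.0126) and old knockout (0.79 ± 0.21, adjusted p = 0.0216), and neither call held with GC offsets (0.31 and 0.37; adjusted p = 0.363 and 0.252). The young call was lost without young wild-type library 2 (0.66, adjusted p = 0.0613), and the old one without old wild-type library 1 or 2 or old knockout library 2 or 3 (0.70 to 0.82, adjusted p 0.0645 to 0.0831).

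Fzd1 read 23.8, 20.2 and 30.1 CPM in old wild type and 51.4, 43.6 and 57.0 in old knockout, with no overlap (1.03 ± 0.25, adjusted p = 0.0168). With GC offsets the old value was 1.29 and passed. In young mice it read 31.1, 33.2 and 28.5 CPM in wild type and 32.0, 45.6 and 73.5 in knockout, where the groups overlapped through young knockout library 1. The young difference did not pass on the counts as deposited (0.69 ± 0.25, adjusted p = 0.0659 by edgeR and 0.0272 by DESeq2) and passed with GC offsets (1.02, adjusted p = 0.0219). The old call was lost without old wild-type library 1 or 2 or old knockout library 3 (0.90 to 0.9998, adjusted p 0.0564 to 0.0669).

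Fzd6 was the scarcest of the Frizzled members per kilobase. It read 3.08, 4.27 and 4.90 CPM in old wild type and 2.10, 0.870 and 2.03 in old knockout, with no overlap (-1.39 ± 0.42, adjusted p = 0.0385). The call ended with GC offsets (-1.45, adjusted p = 0.0532). It was also lost without young wild-type library 1, old wild-type library 1, 2 or 3, or old knockout library 2 or 3 (-1.55 to -0.97, adjusted p 0.052 to 0.156). Fzd4 missed the threshold in old mice (0.69, adjusted p = 0.0573 by edgeR and 0.0392 by DESeq2) with 33.2 to 41.04 CPM in wild type and 45.8 to 73.0 CPM in knockout. Fzd7 made up 22.7 ± 2.35% of the Frizzled sum per kilobase in young wild type, 32.1 ± 1.49% in old wild type, and 19.8 ± 0.846% and 22.2 ± 1.13% in young and old knockout, while its own level did not pass in any comparison.

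Among the 5 co-receptors Lrp5 was lower in young knockout and Ror2 higher in old knockout. That is 1 call of 5 at each age, near the 20.9% of all genes called in young and 16.7% in old mice. Lrp5 read 191, 170 and 173 CPM in young wild type and 129, 129 and 125 in young knockout, with no overlap (-0.48 ± 0.10, adjusted p = 0.00675). The call held without any single library and ended with GC offsets (-0.16, adjusted p = 0.423). In old mice, at 123 to 136 CPM in wild type and 102 to 110 in knockout, it did not pass (-0.29 ± 0.10, adjusted p = 0.0736 by edgeR and 0.0308 by DESeq2). Its partner Lrp6 did not pass at either age (0.43 and 0.26), and the share of Lrp5 in the per-kilobase sum of both was 47.4 ± 4.87% in young and 40.0 ± 1.02% in old wild type, and 32.4 ± 4.49% and 31.5 ± 1.19% in young and old knockout.

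Ror2, a receptor of the branches without beta-catenin, read 0.7998, 0.894 and 0.749 CPM in old wild type and 2.55, 3.48 and 3.20 in old knockout. These values rest on few reads, 13, 9 and 11 in old wild type and 17, 52 and 11 in old knockout. In CPM the groups did not overlap, and Ror2 was higher in old knockout (1.92 ± 0.44, adjusted p = 0.0118 by edgeR, or 2.24 with GC offsets). It also passed without any single library. In young mice it read 3.74, 2.62 and 2.73 CPM in wild type and 1.33, 2.57 and 4.22 in knockout, and did not pass (-0.25 ± 0.41, adjusted p = 0.689; 0.17 with GC offsets). Old wild type was thus the low group, and the 3 other group means were 2.71 to 3.08 CPM. The related receptor Ror1 ranged from 72.5 to 270 CPM in young and from 43.3 to 193 in old knockout and did not pass (0.89 and 0.77).

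Of the inhibitors, Dkk3 and Nkd2 were higher and Znrf3 lower in old knockout, and 0 passed in young knockout by edgeR or DESeq2. By edgeR 9.52% of all genes were called higher and 7.21% lower in old mice, and 20.9% in either direction in young mice. Dkk3 read 6.40, 6.26 and 7.49 CPM in old wild type and 10.1, 15.7 and 12.8 in old knockout, with no overlap (0.94 ± 0.23, adjusted p = 0.0159; 1.04 with GC offsets). The call was lost without old wild-type library 1 or 2 or old knockout library 2 (0.75 to 0.91, adjusted p 0.0587 to 0.0699). Nkd2, which binds Dishevelled, read 4.61, 3.78 and 4.56 CPM in old wild type and 10.1, 5.29 and 11.6 in old knockout, with old knockout library 2 close to wild type (1.02 ± 0.31, adjusted p = 0.041; 1.19 with GC offsets). It was lost without old wild-type library 1, 2 or 3 or old knockout library 1 or 3 (0.82 to 1.07, adjusted p 0.0881 to 0.153).

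Znrf3 read 37.1, 51.5 and 44.95 CPM in old wild type and 28.9, 27.6 and 23.8 in old knockout, with no overlap (-0.73 ± 0.18, adjusted p = 0.0157; -0.64 with GC offsets). The call was lost without old wild-type library 2 or old knockout library 3 (-0.64 to -0.61, adjusted p 0.0661 to 0.0771). In young mice Znrf3 (-0.30), Dkk3 (0.36) and Nkd2 (-0.02) did not pass. Sfrp2, a secreted Frizzled-related protein, read 0.246, 0.596 and 0.409 CPM in old wild type and 0.751, 1.34 and 4.07 in old knockout, a difference with a wide error that did not pass (2.17 ± 0.78, adjusted p = 0.0708 by edgeR and 0.039 by DESeq2). Wif1, a secreted Wnt-binding inhibitor, read 0.340 CPM in young wild-type library 1 and 0 in young wild-type libraries 2 and 3. In young knockout it read 0.332 to 1.74 CPM, so the groups overlapped (adjusted p = 0.0748 by edgeR and 0.0187 by limma-voom). By edgeR it passed without young wild-type library 1 (adjusted p = 0.0265), a fit in which the remaining young wild-type libraries were at 0. It also passed without young knockout library 1 (adjusted p = 0.0404 by edgeR).

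Markers of other cell types also differed between the genotypes. The share of all genes called in either direction was 20.9% in young and 16.7% in old mice. In old mice summed tendon markers were 40.2 to 55.6 CPM in wild type and 113 to 1201 in knockout, with 6 of 8 called higher, and summed fibroblast markers were 4071 to 4862 and 5682 to 7542 CPM, with 2 of 12 called higher. Summed pericyte and smooth muscle markers were 2828 to 2911 and 3064 to 3586 CPM, with 3 of 8 called higher, and summed macrophage markers 112 to 129 and 15.8 to 79.9 CPM, with 2 of 9 called lower. In young mice summed tendon markers were 93.3 to 194 CPM in wild type and 223 to 393 in knockout, with 1 of 8 called higher and 1 lower. Summed fibroblast markers were lower in young knockout, at 7720 to 8955 CPM in wild type and 6537 to 6915 in knockout. The median log2 fold change over the 12 markers was 0.03, so the sum and the median differed in direction. Of these, 1 of 12 was called higher and 2 lower. Of the satellite cell and myoblast markers, 3 of 11 were called lower in young knockout (median -0.40). Of these 5 lists 0 markers were at 0 in every library of a group. Of the 9 choroid plexus markers, 7 were called lower in young and 8 in old knockout. The part of these cells in the members' values was not tested, and in bulk RNA fewer cells of a type and less RNA per cell cannot be told apart.

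Vangl2, a planar polarity membrane protein, was lower in young knockout. It read 22.1, 23.9 and 19.6 CPM in young wild type and 12.8, 11.3 and 10.7 in young knockout, with no overlap (-0.90 ± 0.17, adjusted p = 0.00276). The call held with GC offsets (-0.65, adjusted p = 0.0415) and without any single library. In old mice it read 13.8, 11.6 and 13.6 CPM in wild type and 10.8, 12.4 and 9.88 in knockout, and did not pass (-0.23 ± 0.17, adjusted p = 0.37). Vangl1 and Prickle1 did not pass at either age.

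The 8 tested members of the ligand class, Porcn among them, gave 0 calls in either knockout comparison by edgeR or DESeq2, and limma-voom called Wnt6 in old mice (1.64, adjusted p = 0.0434). By edgeR 20.9% of all genes were called in young and 16.7% in old mice. The median log2 fold change of the 8 members was -0.18 in young and 0.30 in old mice. Wnt11, a ligand of the branches without beta-catenin, read 3.82, 1.49 and 2.52 CPM in old wild type and 4.21, 5.42 and 4.65 in old knockout, with no overlap, and passed with GC offsets (1.15, adjusted p = 0.0472) but not on the counts as deposited (0.86 ± 0.32, adjusted p = 0.0784). Single libraries stood out among ligands: Wnt6 read 13.2 CPM in young knockout library 3 against 0.513 to 1.68 in the other libraries of young mice. Wnt4 read 20.4 CPM in old knockout library 1 against 3.35 and 2.91 in old knockout libraries 2 and 3. Young knockout library 3 was the highest library for 29.4% of the tested members and for 17.0% of all genes, and its summed Schwann cell and neural markers, at 640 CPM, were the highest of all libraries.

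**Figure D4:**
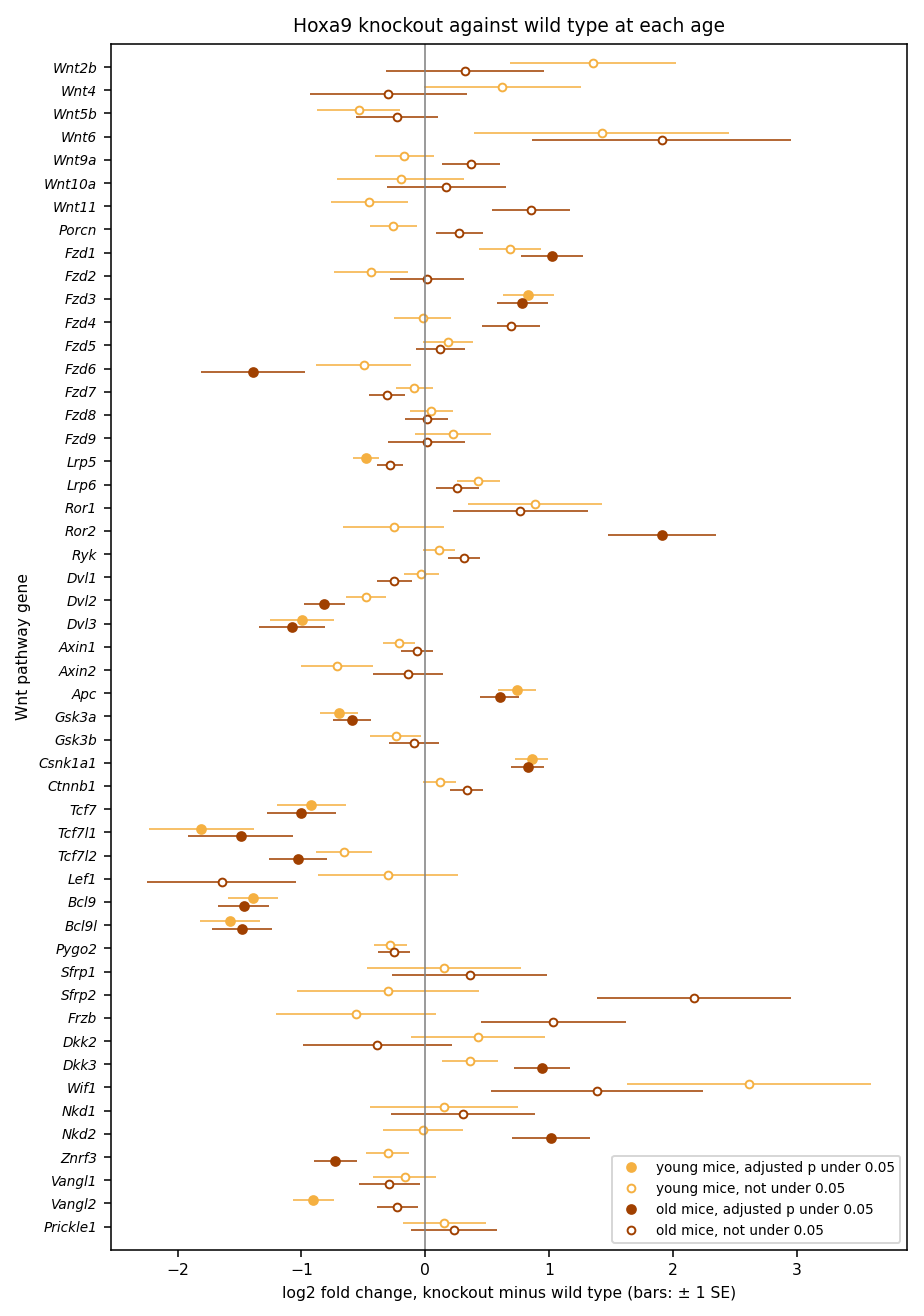
Log2 fold change, knockout minus wild type, of the 51 tested members (rows, by role) in young and old mice; bars are ± 1 SE and filled points have an adjusted p under 0.05. Of the filled points 9 genes are filled at both ages on the same side of 0, among them Bcl9 (-1.39 and -1.47) and Csnk1a1 (0.86 and 0.83), while Vangl2 and Lrp5 are filled in young mice alone.

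With age in wild type, 1 of the 51 tested members passed (1.96%), against 1.06% of all genes, and it was lower in old mice, where 0.805% of all genes were called lower and 0.258% higher. Of the members 35 had negative and 16 positive fold changes, with a median of -0.20 against 0.01 over all genes, and 10 (19.6%) had an unadjusted p under 0.05, against 14.2% of all genes. The member that passed was Vangl2, at 22.1, 23.9 and 19.6 CPM in young and 13.8, 11.6 and 13.6 in old wild type, with no overlap (-0.74 ± 0.16, adjusted p = 0.0452). That call was lost with GC offsets (-0.72, adjusted p = 0.0613) and without any one of the 6 wild-type libraries (-0.82 to -0.67, adjusted p 0.0825 to 0.187). It was also lost without young knockout library 2 or old knockout library 1 or 3, which enter only through the shared spread (-0.76 to -0.73, adjusted p 0.0563 to 0.0668).

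Next to the threshold stood Ror2 and Lrp5, which DESeq2 called. Ror2 was lower in all old than in all young wild-type libraries (the values above; -1.90 ± 0.42, adjusted p = 0.0513 by edgeR and 0.00785 by DESeq2). Lrp5 read 191, 170 and 173 CPM in young and 130, 123 and 136 in old wild type, with no overlap (-0.46 ± 0.10, adjusted p = 0.0543 by edgeR and 0.000992 by DESeq2). Wnt11 read 6.26, 5.25 and 5.69 CPM in young and 3.82, 1.49 and 2.52 in old wild type (-1.12 ± 0.31, adjusted p = 0.103 by edgeR and 0.0489 by DESeq2). Fzd4 (-0.77, adjusted p = 0.133), Dkk3 (-0.61, adjusted p = 0.225), Sfrp2 (-1.84, adjusted p = 0.276) and Prickle1 (-0.73, adjusted p = 0.349) were lower in every old than in every young library and did not pass.

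For 18 of the 51 members (35.3%) every old wild-type library was below every young one, against 13.8% of all genes, and for 2, Wnt10a and Wnt2b, every old library was above, against 13.1%. The 18 were Axin1, Bcl9, Ctnnb1, Dkk3, Fzd2, Fzd4, Fzd8, Gsk3a, Lrp5, Porcn, Prickle1, Ror1, Ror2, Sfrp2, Vangl2, Wnt11, Wnt6 and Wnt9a. They span ligands, receptors, destruction complex, nuclear and polarity members, and 1 of them passed the test. With GC offsets the count was 14 (27.5% of the members) against 13.3% of all genes. With library size alone as the scaling it was 10 (19.6% of the members) against 9.21% of all genes. Under that scaling every old library was above every young one for 5 members (9.8%), against 19.2% of all genes. Beside these, summed fibroblast markers were 7720 to 8955 CPM in young and 4071 to 4862 in old wild type, with 4 of 12 called lower, and summed tendon markers 93.3 to 194 and 40.2 to 55.6 CPM, with 0 of 8 called. Summed pericyte and smooth muscle markers were 3590 to 4423 and 2828 to 2911 CPM, with 1 of 8 called lower. Summed macrophage markers were 22.0 to 40.0 CPM in young and 112 to 129 in old wild type. The part of these cells in the members' values was not tested.

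**Figure D5:**
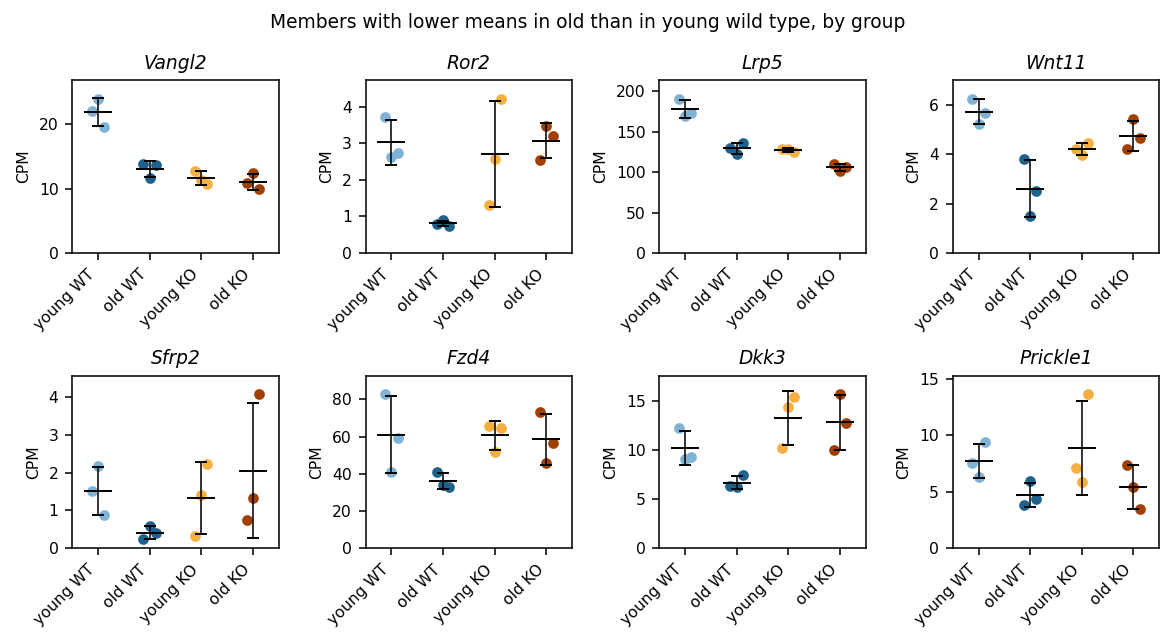
Levels (CPM, vertical axis from 0) of 8 members in the 4 groups, chosen after their values were seen for low levels in old wild type; points are libraries, horizontal bars the mean and error bars the SD of 3 libraries. Ror2 is lowest in old wild type (0.749 to 0.894 CPM) and Vangl2 and Lrp5 are highest in young wild type.

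With age in knockout 0 members passed by edgeR's quasi-likelihood test, against 0.0148% of all genes, and 0 passed by DESeq2. Of the members 5 (9.8%) had an unadjusted p under 0.05, a share near the 9.72% of all genes: Nkd2 (0.95 ± 0.32), Fzd6 (-1.22 ± 0.43), Lrp5 (-0.27 ± 0.10), Frzb (1.55 ± 0.65), a secreted Frizzled-related protein, and Dkk2 (-1.32 ± 0.60), a secreted Lrp inhibitor. The smallest adjusted p was 0.344. Leaving out young knockout library 3 gave 1 call, Wnt10a (1.86, adjusted p = 0.0428), and leaving out old knockout library 1 gave 1, Wnt4 (-2.10, adjusted p = 0.0343).

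The test of whether the age effect differed between the genotypes gave 0 calls among the members by edgeR and by DESeq2, against 0.0148% of all genes by edgeR. An unadjusted p under 0.05 was found for 6 members (11.8%), near the 9.72% of all genes: Ror2 (2.17 ± 0.60, adjusted p = 0.308), Wnt11 (1.31 ± 0.45), Vangl2 (0.68 ± 0.23), Nkd2 (1.03 ± 0.45), Sfrp2 (2.47 ± 1.07) and Fzd4 (0.71 ± 0.33). All of these differences were positive, which means a less negative or more positive age effect in knockout. Members called at 1 age alone, such as Vangl2, Ror2 and Dkk3, are thus not shown to differ between the ages.

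A second list held 80 other Wnt pathway genes, of which 77 are in the files and 58 were tested. In young mice 7 were higher and 6 lower in knockout, in old mice 9 were higher and 1 lower, and with age 0 passed in either genotype. The knockout calls are 22.4% and 17.2% of the tested genes of this list, near the 20.9% and 16.7% of all genes. Hbp1, a repressor of Wnt targets, read 141 to 148 CPM in young wild type and 251 to 302 in young knockout (0.91 ± 0.13, adjusted p = 0.000899) and was also higher in old knockout (0.61 ± 0.13, adjusted p = 0.00799). Lgr4, a receptor for R-spondins, read 24.8 to 31.1 CPM in the young wild-type libraries, 15.9 to 22.8 in the old ones, 38.3 to 73.3 in the young knockouts and 37.1 to 51.1 in the old knockouts. It was higher at both ages (0.94 and 1.19; adjusted p = 0.0113 and 0.00609). Tle3, a co-repressor that binds TCF factors, was lower at both ages (-0.65 and -0.60; adjusted p = 0.00835 and 0.0164).

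In young mice Tnks2 (0.85), a tankyrase that turns over Axin, and the kinase Mapk8 (0.69) were also higher, and Dact3 (-1.09), a Dishevelled-binding protein, Aes (-0.66) and Tle2 (-1.13), of the same co-repressor family as Tle3, were lower. In old mice Rac1 (0.66), a small GTPase of the polarity branch, and Invs (0.53), inversin, were higher. With GC offsets 4 of the 13 young calls and 6 of the 10 old calls passed, with Hbp1 and Lgr4 at both ages among them, and Tle3 passed at neither (adjusted p = 0.113 and 0.0919). Wnt7a, a ligand known for its action on satellite cells, had counts in 1 library (0.298 CPM in old wild-type library 2). Wnt7b, at 4.47 to 17.5 CPM, did not pass in any comparison.

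Of 34 Wnt target genes, 29 were tested, and 7 of the 34 are also members. With age in wild type 1 was lower: Sox9, a transcription factor, at 253 to 276 CPM in young and 143 to 155 in old wild type (-0.81 ± 0.14, adjusted p = 0.0176). In young knockout 4 were lower: Sox9 at 108 to 132 CPM (-1.12 ± 0.14, adjusted p = 0.000697), Tcf7, Fosl1, a Fos-family factor (-1.11, adjusted p = 0.038), and Lgr5, an R-spondin receptor (-0.91, adjusted p = 0.0464). In old knockout 2 were lower, Znrf3 and Tcf7. These are 13.8% and 6.9% of the tested targets, below the 20.9% and 16.7% of all genes called in either direction. The median log2 fold change of the tested targets was -0.21 with age in wild type, -0.29 in young and 0.14 in old knockout, and 0 targets were called higher in any comparison. With GC offsets Sox9 passed with age (-0.82, adjusted p = 0.0169) and in young knockout, Lgr5 in young and Znrf3 in old knockout, and Fosl1 and Tcf7 did not.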

How the data were processed

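RNA-seq libraries of activated satellite cells (12, in 4 groups of 3) were analysed. The authors deposited raw read counts per gene symbol, whole numbers with no normalisation. TopHat, HTSeq, DESeq2 and the mm9 build are named without versions or settings, per the submitters' processing notes, and the libraries were stranded, depleted total RNA, per the labels' protocols. The annotation and strand setting are not given in the sources used here. Lines that name no gene were left out of library sizes; reads outside genes were 32.2 to 70.8% and reads shared by several genes 0.433 to 1.37% of uniquely placed reads. Every member was taken by its symbol.

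Genes were kept by edgeR's filterByExpr, scaled by TMM and fitted with the robust quasi-likelihood test (edgeR 4.0.16 in R 4.3.3), with 1 mean per group over all 12 libraries. Fold changes are on the log2 scale, and p-values were adjusted by Benjamini-Hochberg over all 13540 genes, with a threshold of 0.05. CPM were computed from TMM-scaled library sizes of the tested genes, and levels per kilobase with the longest GENCODE M21 transcript, from which GC content was also taken (20584 of 22310 symbols, 92.3%, matched). GC offsets used a spline per library. Alternatives were DESeq2 1.42.0, limma-voom with sample weights (limma 3.58.1), other scalings and filters, a fit of the compared groups alone, a replicate block, offsets for GC and length, and leaving out libraries. The rule for names was that every member may be named, with full statistics for those past the threshold, and other pathway and target genes past it at most 4 in each direction per comparison, by the smallest adjusted p. Promoters and their coordinates come from RefSeq on GRCm38.p6, not the build of the files. The members, gene lists and marker lists were chosen with earlier results of these data known, and the overlap counts in wild type under other scalings were added after seeing the data.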

Additional observations from a re-analysis of the deposited data

How the results depend on the processing

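No call of a member reversed its direction under any alternative run. Of members that passed in neither fit, GC offsets turned the sign of 9 in young and 5 in old knockout, and the young knockout median of the members from -0.17 to 0.17. For age in wild type 1 member and 144 of 13540 genes passed. The count of members was 4 by DESeq2 (461 of 20721 genes) and 6 by limma-voom (1003 of 13540 genes). It was 2 with a mean log2 CPM over 1 (135 of 12025 genes) and 3 with the compared groups alone (913 of 13486 genes). It was 0 with library size alone, upper quartile scaling and the replicate block. With GC offsets, GC and length offsets, or GC offsets and the replicate block it was also 0. Without both libraries with most reads outside genes it was 0 as well. Without old knockout libraries 2 and 3, those with high Ddx3y, the log2 fold change of Vangl2 was -0.76. Leaving out each library in turn gave 0 to 3 (3 without young knockout library 3), and for age in knockout 0 to 1. The young knockout count of 11 (2831 of 13540 genes) was 7 with the compared groups alone (1536 of 12733 genes) and 6 with GC offsets (857 of 13540 genes). It was 6 with GC and length offsets (965 of 13540 genes) and 4 with GC offsets and the replicate block (544 of 13540 genes). Over single libraries left out it was 8 to 15. In old knockout 2265 of all genes passed, and 933 with GC offsets. The old knockout count of 17 was 27 by limma-voom, 10 with GC offsets and 8 with GC offsets and the replicate block. It was 0 without both libraries with most reads outside genes, and 7 to 20 over single libraries left out. With library size alone it was 3 higher and 12 lower instead of 7 and 10, as the median over all genes went from -0.01 to -0.26. The difference of age effects gave 0 under every alternative. The count of 18 members with no overlap with age, lower in old wild type, was 10 with library size alone, and 16, 16 and 14 with RLE factors, upper quartile factors and GC offsets. Apart from settings that use fewer libraries or groups, the cause was not tested.

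Replicate numbers in the labels are shared by the groups, and the labels do not say that they pair the libraries. Of 18 same-numbered pairs 3 had a correlation of deviations over 0.1 (range -0.26 to 0.23). Differently numbered pairs ranged from -0.35 to 0.31. With 3 libraries a group these correlations cannot show whether the numbers pair the libraries. With the replicate block the counts were 12 in young and 15 in old knockout and 0 for age in wild type, for age in knockout and for the difference of age effects. The depth of 4193433 reads in the smallest library limits the members under about 1 CPM, and 3 libraries a group limit every test.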
